A study of Homo sapiens with 2 samples.

Results

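The genes described here are 10 regulators and markers of epithelial-mesenchymal transition (EMT): the transcription factors SNAI1, SNAI2, TWIST1, TWIST2, ZEB1, ZEB2 and PRRX1, the intermediate filament vimentin (VIM), and the cadherins CDH1 (E-cadherin) and CDH2 (N-cadherin). They were chosen by name, as every probe that the array's annotation assigns to one of these symbols, which gave 14 of 47323 probes and 10 of 20046 named genes. The cells were A4573, an established line of Ewing sarcoma, a tumour of bone and soft tissue usually driven by an EWSR1-FLI1 fusion. The first group was the parental wild-type line and the second its radiation-adapted derivative, which carries the label 4 Gy; both share the A4573 background, and the labels give no radiation schedule, clone status or interval before harvest. Total RNA of each line was measured on 1 Illumina bead array, so the comparison has no replicate error, no test was run, and every difference is one between 2 arrays.

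EMT is the shift of cells from a sheet held together by E-cadherin to a loose, motile state marked by vimentin and often by N-cadherin, an exchange known as the cadherin switch. The SNAI and ZEB zinc-finger proteins repress E-cadherin and other epithelial genes by binding E-boxes in their promoters, TWIST proteins are basic helix-loop-helix factors that bind E-boxes with a partner, and PRRX1 is a homeodomain factor of mesenchyme. ZEB1 and ZEB2 are in turn held down by the miR-200 family and by miR-205, which are known for keeping epithelial cells epithelial. Ewing sarcoma cells are known for mixed mesenchymal and neural features.

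The detection p sets the signal of a probe against the negative controls of its array, and values up to 0.01 were taken as detected. By that limit 7 of the 10 genes were detected in at least 1 array, 6 of them in both and TWIST2 in the wild-type array alone. SNAI1, ZEB1 and CDH1 were detected in neither array. At the level of probes, 9 of 14 passed in both arrays, 1 passed for wild type only and 4 failed in both. The dimmest detected probe of any gene read 152.0 for wild type and 158.2 for adapted cells, against median intensities of 139 and 140 over all probes, and 37.8% and 35.3% of probes were detected.

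The miRNAs that hold ZEB genes down are shown first, because ZEB2 was the single member of the 10 genes that exceeded its wild-type level by 1.5-fold or more. The mature sequences below are from RefSeq (GRCh38.p14), written 5′ to 3′, with the seed (bases 2 to 8) in capitals. The family falls into a group with the seed AAUACUG (miR-200b, miR-200c and miR-429) and a group with the seed AACACUG (miR-200a and miR-141), while miR-205 has a seed of its own.
hsa-miR-200b-3p: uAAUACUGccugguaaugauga
hsa-miR-200c-3p: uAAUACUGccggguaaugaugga
hsa-miR-429: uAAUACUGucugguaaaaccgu
hsa-miR-200a-3p: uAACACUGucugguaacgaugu
hsa-miR-141-3p: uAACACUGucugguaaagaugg
hsa-miR-205-5p: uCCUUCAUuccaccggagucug
All 7 loci of the list, these 6 precursors and the host gene MIR205HG, had a probe on the array, and none was detected in either array. The brightest precursor reading was 141.0, for MIR200B in the wild-type array, where its detection p was 0.08182. In the adapted array the same probe read 119.8. These probes match precursor transcripts, and the level of the mature miRNAs was not measured. How far the labelling captures such precursors was not tested, so readings at background give no level for them.

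The upstream windows of the 3 genes past 1.5-fold with a RefSeq promoter entry are shown because TWIST2 and CDH2 were lower in the adapted array and ZEB2 was higher. Each line holds the 250 bases before the start site (GRCh38.p14), read along the gene, with matches to CANNTG, the general E-box, in capitals; the motif is its own reverse complement.
TWIST2, chr2:238847835-238848084, plus strand: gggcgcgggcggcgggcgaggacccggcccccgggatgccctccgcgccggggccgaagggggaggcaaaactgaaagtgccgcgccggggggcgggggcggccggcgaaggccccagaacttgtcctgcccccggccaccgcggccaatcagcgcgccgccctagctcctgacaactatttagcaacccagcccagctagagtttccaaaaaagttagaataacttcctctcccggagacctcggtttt
ZEB2, chr2:144520120-144520369, minus strand: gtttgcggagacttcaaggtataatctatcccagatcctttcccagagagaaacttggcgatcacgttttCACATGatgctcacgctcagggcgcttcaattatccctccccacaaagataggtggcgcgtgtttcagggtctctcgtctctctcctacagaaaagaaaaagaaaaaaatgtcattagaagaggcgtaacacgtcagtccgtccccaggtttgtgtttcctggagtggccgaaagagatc
CDH2, chr18:28177131-28177380, minus strand: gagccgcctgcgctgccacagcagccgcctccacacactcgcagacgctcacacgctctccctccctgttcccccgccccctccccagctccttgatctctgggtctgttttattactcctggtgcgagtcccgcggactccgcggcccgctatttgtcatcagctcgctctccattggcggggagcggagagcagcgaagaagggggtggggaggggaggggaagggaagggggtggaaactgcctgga
The ZEB2 window holds 1 match to CANNTG, and the TWIST2 window and the CDH2 window shown hold 0. A second CDH2 start site has 1. Over 35116 windows of this length, 61.8% hold at least 1. The stricter E-box read by SNAI and ZEB proteins, CACCTG or CAGGTG on either strand, is a subset of CANNTG and is present in 17.5% of all windows. Of 13 windows that belong to the 6 members with an entry, 2 hold it, both of them ZEB1 start sites. A match is a description of the letters in the window and says nothing of binding. SNAI1, SNAI2, TWIST1 and CDH1 are named only.

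Differences are given below as log2 adapted minus log2 wild-type after background correction with an offset of 16 and quantile normalisation. Of the 7 detected genes, ZEB2 (1 gene) was above its wild-type level by 1.5-fold or more, SNAI2, TWIST2 and CDH2 (3 genes) were below it by as much, and TWIST1, PRRX1 and VIM (3 genes) lay under 1.5-fold. Among all 11296 genes with a detected probe, 11.8% were at least 1.5-fold higher and 12.3% at least 1.5-fold lower. At 2-fold the counts were 0 higher and 2 lower, against 2.76% and 4.43% of all genes. The median difference of the 7 genes was -0.13, and that of all genes 0.01, with quartiles of -0.37 and 0.36. With so few genes the count says little of the group as a whole, and the genes are therefore described one by one.

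**Figure D1:**
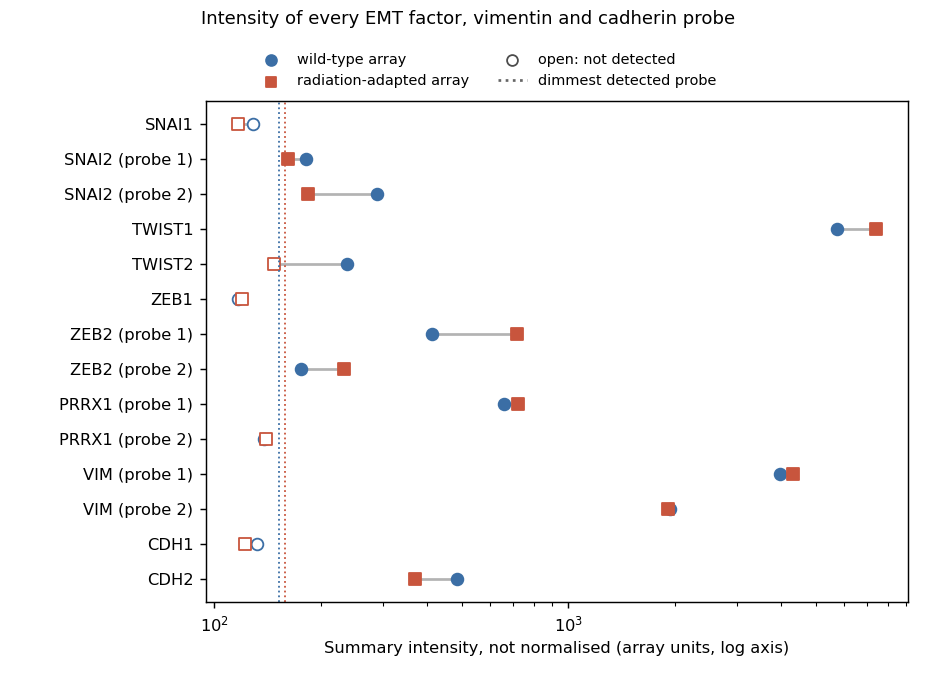
Summary intensity before normalisation (x axis, array units, log scale) for each of the 14 probes, with circles for the wild-type array and squares for the adapted array, open where the probe was not detected. The dotted lines mark the dimmest detected probes at 152.0 and 158.2; SNAI1, ZEB1, CDH1 and a PRRX1 probe lie left of both, and TWIST1 and VIM are far to the right.

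SNAI2, also called Slug, is a zinc-finger repressor of E-cadherin known from neural crest and mesenchyme. Its brighter probe (ILMN_2082585) read 287.6 for wild type and 183.6 for adapted cells, both with a detection p of 0. On the normalised log2 scale these were 7.53 and 6.12, a difference of -1.41, or 2.65-fold lower (-0.71 without background correction). The second SNAI2 probe (ILMN_1655740) read 182.0 and 161.1, the latter just above the dimmest detected intensity of its array. The difference of this probe was -0.56, under 1.5-fold. The call at that limit thus rests on the brighter probe, and the mean over the probes was -0.98. Both probes were lower in the adapted array, but the size differed between them by 0.85 on the log2 scale. Over 2326 genes with a pair of probes detected in both arrays, the SD of a difference per probe was 0.28, and it was 0.33 where the dimmer probe was under a log2 value of 7. That SD is for 1 probe, and the gap between the probes of a pair spreads wider. Among the 914 pairs with the dimmer probe under 7, 81.2% lay within 0.58 of one another. Of all genes, 1.80% had a lower value than SNAI2. Here and below, such shares enter genes detected in 1 array by their bounds, which are never larger in size than the measured differences.

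SNAI1, or Snail, is the founding member of that family and shares its repressor function. Its only probe (ILMN_1758086) read 128.6 in the wild-type array with a detection p of 0.42208 and 116.6 in the adapted array with a detection p of 0.91299. Both readings were under the median of their array, so no fold is given. The third family member, SNAI3, was likewise not detected, at 124.9 and 150.2.

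TWIST2, also called Dermo1, is a repressor of differentiation in dermal and bone-forming mesenchyme. Its probe (ILMN_1677429) read 237.6 in the wild-type array, where its detection p was 0, and 147.6 in the adapted array, where its detection p was 0.04935 and it was not detected. Set against the dimmest detected value of the adapted array, TWIST2 was at least 2.88-fold lower in the adapted array. The measured log2 values were 7.02 and 5.13, a difference of -1.89, which is the value used when the detection limit is relaxed to 0.05. Of all genes, 1.48% had a lower value than the TWIST2 bound of -1.53. Without background correction the bound was -0.62, and it was -1.05 with an offset of 50.

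TWIST1, the close relative of TWIST2 and a regulator of cranial and limb mesenchyme, was bright in both arrays. Its probe (ILMN_1672908) read 5755.1 for wild type and 7403.6 for adapted cells. After normalisation the log2 values were 12.57 and 12.73, a difference of 0.16. That lies inside the quartiles of all genes and is smaller than the SD per probe of 0.19 found for probe pairs with log2 values of 9 or more. Of the pair of TWIST genes, TWIST1 thus lay under 1.5-fold and TWIST2 was at least 2.88-fold lower. Levels of different probes are not compared here, because each has its own hybridisation strength.

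ZEB2, a zinc-finger and homeodomain repressor known from neural crest and nervous system development, was higher in the adapted array by both of its probes. The brighter probe (ILMN_1688698) read 411.6 for wild type and 718.3 for adapted cells, and the log2 values of 8.35 and 9.14 differed by 0.79, or 1.73-fold. The second probe (ILMN_1820767), which the annotation ties to an expressed sequence tag of the gene, read 176.2 and 233.1 and differed by 0.85. The probes thus differed from one another by 0.06. Among pairs whose dimmer probe was under a log2 value of 7, as here, 81.2% lay within 0.58 of one another. Of all genes, 5.63% had a higher value than ZEB2. Under every alternative processing run, the brighter probe, or the mean of both, stayed at least 1.5-fold higher, between 0.62 and 1.01.

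ZEB1, the other ZEB factor and in carcinoma a repressor of E-cadherin, was not detected. Its single probe (ILMN_1762231) read 116.6 and 119.9 with detection p values of 0.88961 and 0.82468. The gene has many annotated transcripts, and which of them this probe matches was not analysed here, so a reading at background gives no level for ZEB1. For this family the arrays therefore held a measured difference for ZEB2 alone.

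PRRX1, a homeodomain factor of limb and craniofacial mesenchyme, read 658.9 for wild type and 723.4 for adapted cells by its brighter probe (ILMN_1739496). Its normalised log2 values were 9.21 and 9.14, a difference of -0.06. The raw reading was higher in the adapted array and the normalised one lower. Before normalisation, probes detected in both arrays had a median shift of 0.18 on the log2 scale towards the adapted array. Without normalisation between arrays PRRX1 differed by 0.16, so no direction is given for it. The second PRRX1 probe (ILMN_1811851) was not detected, at 137.9 and 140.2. Its paralog PRRX2, which was in a list of other EMT-linked factors, read 1866.9 in wild-type cells and 1112.9 in adapted cells, a difference of -1.07, or -0.81 without normalisation between arrays.

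Vimentin, the type III intermediate filament protein of mesenchymal cells, was bright in both arrays. The brighter probe (ILMN_1782538) read 3955.9 for wild type and 4324.2 for adapted cells, with normalised log2 values of 12.04 and 11.91 and a difference of -0.13. The second probe (ILMN_2058251) read 1936.5 and 1907.6, a difference of -0.28. The difference of the brighter probe turned to 0.13 without normalisation between arrays, less than the shift of 0.18, and was -0.04 with median scaling. Vimentin was thus detected in both lines, and its difference was small against the 1.5-fold limit of 0.58 in every processing run.

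For the cadherins, CDH2 is the adhesion receptor of neural and mesenchymal cells and CDH1 that of epithelia. CDH2 (ILMN_1779228) read 484.9 for wild type and 368.4 for adapted cells, both with a detection p of 0. The log2 values of 8.65 and 7.91 differed by -0.74, or 1.67-fold lower in the adapted array. Of all genes, 8.20% had a lower value. The call rests on 1 probe and on the processing: CDH2 was at -0.54 without background correction and -0.55 without normalisation between arrays, both just under 1.5-fold, and it was lower in the adapted array under all processings. CDH1 (ILMN_1770940) read 132.0 with a detection p of 0.30519 and 121.9 with a detection p of 0.75974, so it was detected in neither array and no fold is given. The arrays thus showed an N-cadherin reading in both lines, lower in the adapted one, and no E-cadherin reading above background in either.

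**Figure D2:**
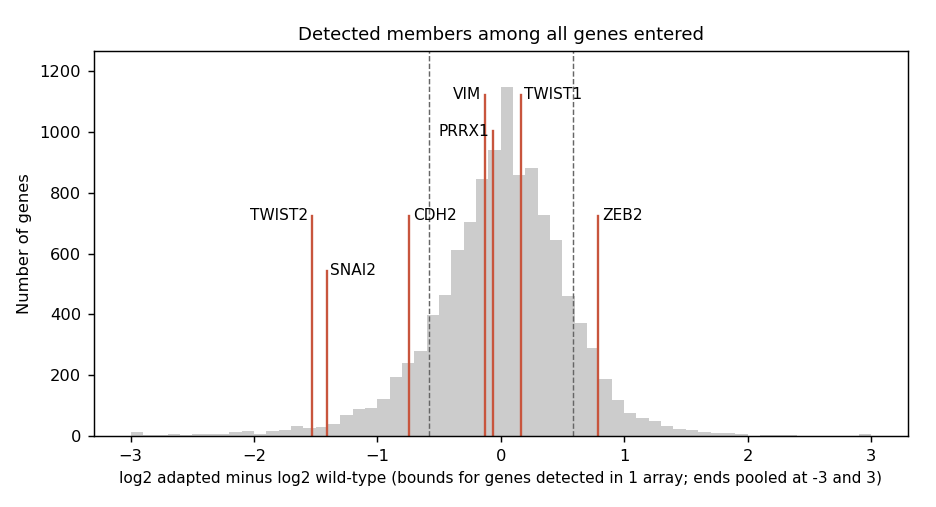
Number of genes (y axis) by log2 adapted minus log2 wild-type (x axis) for the 11296 genes with a detected probe, with bounds for genes detected in 1 array and red lines at the 7 detected members. The dashed lines mark 1.5-fold; TWIST2 (a bound, -1.53) and SNAI2 (-1.41) lie in the lower tail, CDH2 (-0.74) and ZEB2 (0.79) just outside the lines, and VIM, PRRX1 and TWIST1 near the centre.

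The directions of SNAI2, TWIST2, CDH2 and ZEB2 were compared over the main processing and 8 alternatives that change the values. SNAI2 ranged from -1.50 to -0.71, TWIST2 from -1.89 to -0.62 and CDH2 from -0.74 to -0.54, all negative. By the brighter probe, or the mean of probes, SNAI2, TWIST2 and ZEB2 were at least 1.5-fold apart in all 9, and CDH2 in 7. The second probe of SNAI2 was under 1.5-fold in the main processing (-0.56) and without background correction (-0.19), and gave -0.73 with median scaling. That of ZEB2 gave 0.85 in the main processing and 0.37, under 1.5-fold, without background correction. TWIST1 lay between 0.14 and 0.37. Quantile normalisation keeps the ranks of probes within an array, so these alternatives share much of their input and are not independent.

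**Figure D3:**
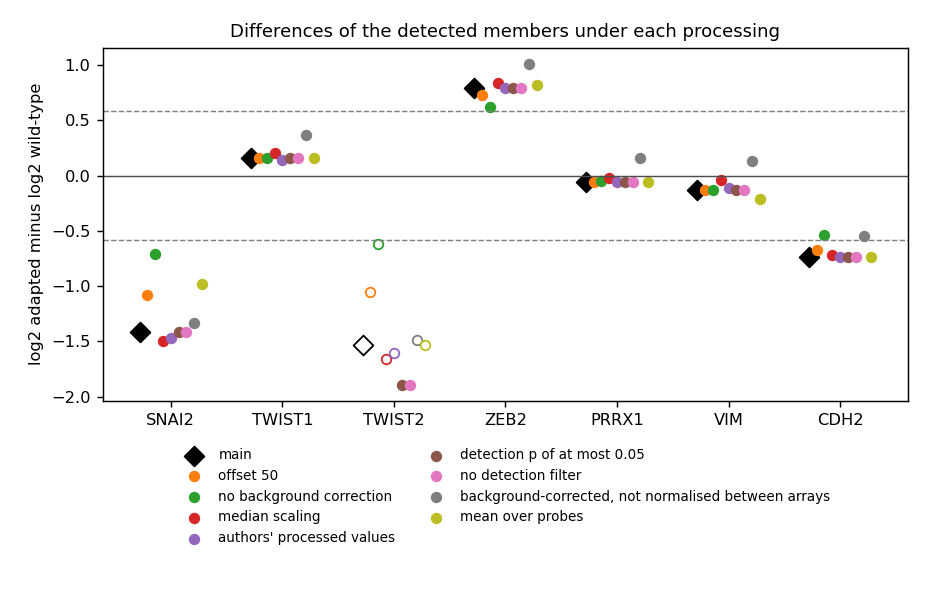
log2 adapted minus log2 wild-type (y axis) for each of the 7 detected members (x axis) under the main processing (black diamond) and 8 alternatives (coloured circles), open where the value is a bound; dashed lines mark 1.5-fold. SNAI2 and TWIST2 spread most, from -1.50 to -0.71 and from -1.89 to -0.62, while PRRX1 and VIM cross 0 without normalisation between arrays.

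The partners and opponents of these factors were read from lists written from general knowledge. At 1.5-fold, 11.8% of all 11296 genes were higher and 12.3% lower, and the list counts below stand beside these shares. The shares are for the main processing alone. Of 22 measured genes among other EMT-linked transcription factors, 12 were detected, and their median difference was -0.21 (-0.06 with bounds). At 1.5-fold, 0 were above the wild-type level and 3 below it. Besides PRRX2 these were TBX3 (-1.28, or -0.67 without background correction), a T-box repressor of limb and mammary development, and the homeodomain factor MSX1 (-1.17). FOXC2, a forkhead factor tied to mesenchymal fate, was at -0.32, and SOX9 at 0.56. HMGA2 was detected in the adapted array alone, at 165.0 against 138.0 in the wild-type array. Its measured difference was 0.85 and its bound, by which it was counted, 0.38. The next list held E-proteins, the dimerisation partners of TWIST, the ID proteins that sequester them, and the bHLH factors HAND1 and HAND2 (0.14). Of its 9 genes, 8 were detected and 7 lay under 1.5-fold. The partners TCF3 (0.08), TCF4 (0.35) and TCF12 (-0.29) and the inhibitors ID1 (-0.56), ID2 (-0.02) and ID3 (-0.02) did not reach it. HAND1, a bHLH factor of heart and neural crest, was at least 2.13-fold lower and not detected in the adapted array, a bound of 1.32-fold without background correction.

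Factors that hold the epithelial state against EMT were mostly undetected, with 12 of 15 measured genes in neither array. KLF4, a zinc-finger factor of epithelial barriers, was at least 1.64-fold higher and detected in the adapted array alone, with a reading of 179.2 against 150.2. That bound was 1.17-fold without background correction. The forkhead factor FOXA1 was at 0.05, and the ETS factor ELF3 had a bound near 0 (-0.02).

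Co-repressors through which SNAI and ZEB proteins silence their targets had a median difference of 0.20. At 1.5-fold, against 11.8% and 12.3% of all genes, 5 of 16 detected genes were above the wild-type level and 0 below it. The former were AJUBA (1.01), a LIM protein that binds Snail proteins, the DNA methyltransferase DNMT1 (0.70), the Polycomb components SUZ12 (0.69) and EZH2 (0.59), and the histone methyltransferase EHMT2 (0.67). The ZEB-binding co-repressors CTBP1 (-0.35) and CTBP2 (-0.11), the deacetylases HDAC1 (-0.16) and HDAC2 (-0.24) and the demethylase KDM1A (0.05) lay under 1.5-fold. The detected probes of HDAC2 differed in sign. Without background correction AJUBA was at 0.48, EHMT2 at 0.30 and EZH2 at 0.48, all under 1.5-fold. Genes of SNAI and TWIST protein turnover had a median difference of 0.32. Of 13 detected genes, 2 passed 1.5-fold, both upwards, against 11.8% of all genes. FBXO11 (0.88) and FBXL5 (0.73), F-box proteins that mark Snail for degradation, were the genes past the limit, with FBXL5 at 0.50 without background correction. GSK3B, the kinase that marks Snail for destruction, was at 0.35. PRKD1 of the same list was detected in the wild-type array alone, at 171.0 against 123.6 in the adapted array. Its measured difference of -1.40 was the largest in size of the list, but its bound of -0.39 was under 1.5-fold.

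Other cadherins were mostly not detected. Of the type II and atypical cadherins, 5 of 17 measured genes were detected and 0 reached 1.5-fold, with CDH11, the cadherin of bone-forming mesenchyme, at -0.11 from readings of 1253.6 and 1389.6. Of the other type I cadherins, the muscle cadherin CDH15 was at least 1.80-fold lower and not detected in the adapted array (1.23-fold without background correction), and P-cadherin, CDH3, had a bound of 0. A list of catenins and cadherin-bound adaptors, which also held nectins and EIF4G1, had a median difference of -0.32 (0.03 without a detection filter). In it, 1 of 12 detected genes was past 1.5-fold. That gene was NECTIN2 (-0.64), an adhesion receptor beside cadherins, at -0.46 without background correction. CTNNB1, or beta-catenin, was at 0.24, CTNNA1, or alpha-catenin, at -0.28, plakoglobin JUP at -0.49 and vinculin VCL at -0.58, which in its unrounded value was under 1.5-fold. The probes of CTNNB1 and of CTNNA1 differed in sign among themselves.

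Among intermediate filaments other than vimentin, 1 of 10 detected genes was higher and 1 lower. The neuronal filament alpha-internexin, INA, read 487.8 and 875.2 and was higher by 0.80, and peripherin, PRPH, of peripheral neurons read 479.3 and 374.6 and was lower (-0.68, or -0.50 without background correction). Epithelial junction and keratin genes, many of which are known targets of SNAI and ZEB repression, had 16 of 26 measured genes in neither array, 0 higher and 2 lower. Those were the transport protein MAL2 (-1.02, or -0.57 without background correction) and the desmosomal cadherin DSG2 (-0.75). The epithelial adhesion protein EPCAM was at 0.47 and claudin CLDN1 at 0.54, both under 1.5-fold.

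Mesenchymal effector genes had a median difference of -0.74, which was -0.64 with bounds and -0.35 without background correction. Of 25 detected genes, 13 were below the wild-type level by 1.5-fold or more and 1 above it, against 12.3% and 11.8% of all genes. Without background correction these counts were 8 and 0. The collagen chain COL5A1 (-1.90) had the most negative value of the list, followed by smooth muscle actin ACTA2 (-1.82), the tropomyosin TPM1 (-1.51) and the matrix protein SPARC (-1.43), whereas the collagen COL3A1 was higher (0.92, or 0.48 without background correction). In the TGF-beta pathway, which induces SNAI and ZEB genes in many cells, 2 of 8 detected genes were higher and 1 lower. The ligand TGFB3 (1.19) and the mediator SMAD4 (0.71) were higher and the receptor TGFBR2 (-1.10) lower, with SMAD4 at 0.56 without background correction.

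**Figure D4:**
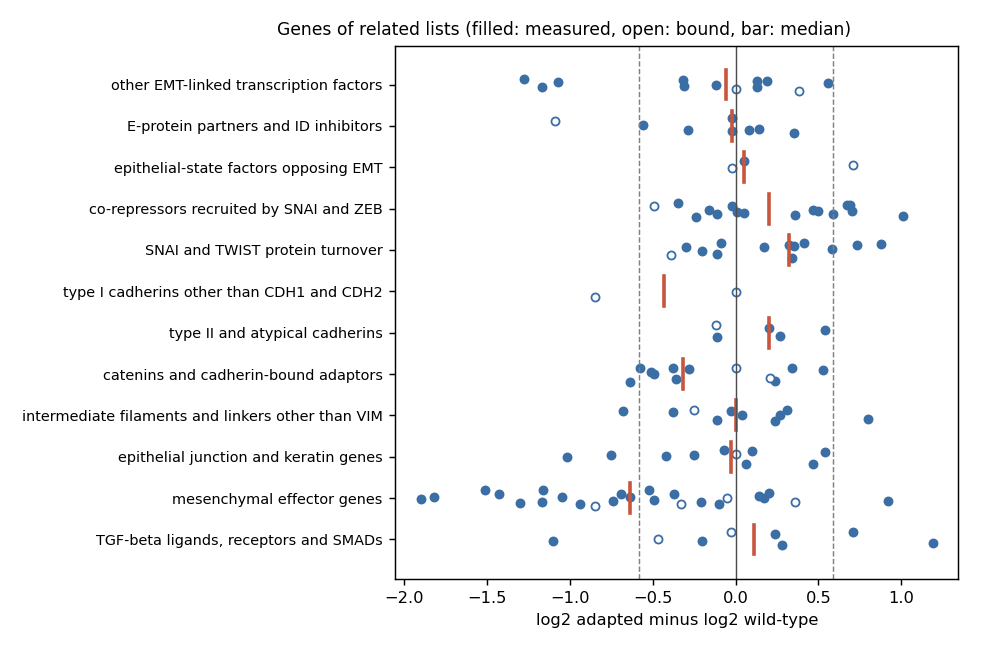
log2 adapted minus log2 wild-type (x axis) of the detected genes in 12 related lists (rows), filled where measured and open where a bound, with a red bar at the median of each list (bounds included) and dashed lines at 1.5-fold. The mesenchymal effector genes have a median of -0.64 with 13 of 25 genes left of the lower line, and the co-repressors have a median of 0.20 with 5 of 16 genes right of the upper line. Of all genes entered, 12.3% were at least 1.5-fold lower and 11.8% at least 1.5-fold higher.

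The identity of the lines was read from marker lists. All 8 Ewing sarcoma markers were detected in both arrays. With the fusion partner EWSR1 (0.20) added, 2 of 9 identity genes were past 1.5-fold upwards and 1 downwards, against 11.8% and 12.3% of all genes. The lipase LIPI (1.82, or 1.23 without background correction) and FLI1 (0.81), the usual fusion partner of EWSR1, were higher, and cyclin D1, CCND1 (-0.65), was lower. CD99 (-0.55), NKX2-2 (-0.09) and STEAP1 (0.35) lay under 1.5-fold. Of 9 epithelial markers 1 was detected, EPCAM, and KRT7, KRT19, CLDN3, CLDN4, CLDN7, ESRP1, GRHL2 and CDH1 were not. Of 10 fibroblast markers, wild-type cells gave 5 detected and adapted cells 6, and their median difference was 0.63, or -0.02 without a detection filter. The level summed over the same probes in each array was 4480 and 3470, a sum that leans on the probe of FBLN1, which read 3459.7 and 1940.4. Within that list DCN (1.97) and LUM (0.78) were higher and FBLN1 (-1.15) was lower. COL14A1 was at least 9.42-fold higher, a bound of 3.20-fold without background correction, where DCN was at 1.25. The part of these markers in the differences of the EMT genes was not tested. Of 9 measured leukocyte markers 2 were detected in each array, CD14 and CD68, and 0 of 7 endothelial markers. In RNA from whole cultures, fewer cells of a type and less RNA per cell cannot be told apart.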

How the data were processed

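Total RNA was extracted with Trizol, checked on a Bioanalyzer and turned into biotin-labelled cRNA with the Illumina TotalPrep kit, per the labels' protocols. The authors deposited, per the file headers, a summary intensity per probe and array, not normalised, and a detection p-value per probe. Their second table holds processed intensity values, with a median of 10.6 in each array and 27.7% of wild-type values below 0. Such values point to background subtraction and to arrays brought to a common scale. Whether this was done by quantile normalisation was not checked. The scanner software was not given in any source used here.

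The summary intensities were passed to neqc (limma 3.58.1, R 4.3.3; background from the detection p, offset 16, quantile normalisation, log2). The offset draws differences of dim probes towards 0, and quantile normalisation removes a difference in total RNA. Probes were named from the platform annotation, updated by gene ID through RefSeq (GRCh38.p14): 30113 of 47323 had 1 symbol, 8 several and 17202 none listed, and 30074 were found in RefSeq. The brightest detected probe stood for its gene, giving 11296 genes. That probe was detected in both arrays for 9828 genes; 985 genes were detected for wild type only, 454 for adapted cells only, and 29 by a different probe in each array. A gene detected in 1 array has a bound: its value there against either the floor of the other array (the lowest value among detected probes) or the probe's own reading, whichever is higher. List medians use measured differences unless bounds are named.

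No test was run, as each group has 1 array, which limits the precision. Genes were counted at 1.5-fold. Named were all 10 members, CD99, FLI1, NKX2-2 and STEAP1 and, per list, up to 4 genes with the largest difference of at least 1.5-fold. A gene detected in 1 array entered this choice by its bound. Genes past 1.5-fold by the measured difference alone were not all named. EZH2, COL3A1 and genes named under 1.5-fold or as not detected were chosen after their values were seen. The members and lists were chosen with earlier results of these data known. Likeness to other genes was not ranked, since over 2 arrays a pattern is a single difference. The normalisation was tested on simulated arrays, with changes set in probes well above background. Dim probes, the detection calls, the bounds and the counts were not tested in this way. Python 3.11.15 with pandas 2.3.3 and numpy 2.4.6 did the counting, and matplotlib 3.10.9 the plots.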

Additional observations from a re-analysis of the deposited data

How the results depend on the processing

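Each result was recomputed with an offset of 50, without background correction, with median scaling, from the authors' processed values, with a detection p of 0.05, with every named probe entered, with probes averaged and, chosen after the data were seen, without normalisation between arrays. The count of members at least 1.5-fold lower was 3, or 2 without background correction and without normalisation between arrays, where CDH2 was just under the limit, and the count higher was 1 in all of these. At a 2-fold limit 0 members were higher and 2 lower. The mean over the SNAI2 probes was -0.98. Over the 141 detected genes of the related lists, 17 were higher and 25 lower, against 11.8% and 12.3% of all genes in the main processing. The counts were 10 and 15 without background correction, and 28 and 21 without normalisation between arrays, where the median shift of 0.18 is kept. The shares of all genes were not counted under those settings. Of 120 recomputed list medians, 112 moved by less than the SD per probe of 0.28, which does not measure the spread of a median. Some of these changed sign. The TGF-beta median went from 0.02 to -0.20 with a detection p of 0.05, and that of epithelial-state factors from 0.05 to -0.10 with median scaling. Among the 8 others, the median of other EMT-linked factors was 0.13 with a detection p of 0.05. Without a detection filter that median was 0.08, that of catenins 0.03 and that of fibroblast markers -0.02. Each of these values among the 8 had the other sign than in the main processing. No replicate could be left out, since each group has 1 array, and readings near background, as for SNAI1, ZEB1 and CDH1, give no level. No paired analysis was possible because each group has 1 array.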

Other observations

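An antisense transcript of ZEB1, ZEB1-AS1, had a probe that was dimly detected in the wild-type array (154.7, detection p 0.00779) and not in the adapted array (144.6, detection p 0.07403), and a second probe that was detected in neither (133.3 and 141.5). The antisense gene of SNAI3, SNAI3-AS1, had 3 probes, of which 1 was detected, in the adapted array alone (145.3 against 164.7, detection p 0.04675 and 0.00649). These genes were chosen after their values were seen.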
